A study of Mus musculus with 10 samples.

Results

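The genes described here are 38 named genes of glycolysis and of the response to low oxygen: the glucose transporters Slc2a1 and Slc2a3, the enzymes that take glucose to lactate, the lactate transporters Slc16a1 and Slc16a3, and genes that the hypoxia-inducible factors are known to drive, with Hif1a itself. They were chosen by name, with earlier results of these data known. All 38 were found among the 55341 genes of the bulk tables and the 32285 genes of the single-cell matrix. The samples came from syngeneic mice whose lung tumours grew after intravenous injection of KP cells, which are a murine lung adenocarcinoma line. Tumour-bearing mice received SHP099, SX682, both drugs (Combo) or Vehicle for 11 days. SHP099 inhibits the phosphatase SHP2, which passes growth factor signals to ERK, and SX682 inhibits the chemokine receptors CXCR1 and CXCR2, which guide neutrophils. Bulk RNA came from Epcam+ cells sorted from nodules, in 3 SHP099 and 3 Vehicle libraries, and single-cell RNA from all live cells of nodules, with 3 hashtagged mice per treatment in 1 pool for each of the 4 treatments. All groups carry the same injected line in hosts with their own immune system, so the tumours are 1 engrafted line and not tumours that arose in place, and the labels give no age or sex of the hosts.

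Glycolysis splits glucose into pyruvate, and lactate dehydrogenase turns pyruvate into lactate, which leaves the cell with a proton. When oxygen is scarce the prolyl hydroxylases encoded by Egln1 and Egln3 no longer mark the HIF-1α protein for destruction, and HIF binds short DNA motifs beside the genes of glucose transporters, glycolytic enzymes, mitophagy receptors and collagen hydroxylases. HIF-1α is controlled mainly as a protein, so the transcript of Hif1a need not move with its targets, and growth signals through ERK are also known to drive glucose uptake and glycolytic transcripts in tumour cells. Neutrophils live largely on glycolysis and keep a HIF programme in inflamed tissue.

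The sequences of 4 promoters are shown because they carry, or in 1 case lack, the core letters of the HIF binding motif at genes that the results turn on. RefSeq (GRCm38.p6) promoters were read from 250 to 51 bases before a transcript start of the gene, 200 bases in all, 5′ to 3′ on the gene's strand. That start need not be the gene's outermost one: the Tpi1 window overlaps the annotated gene, and the Hif1a window lies within it. The letters searched were ACGTG and GCGTG on either strand, so that CACGT and CACGC also count and CACGTG holds an overlapping pair, and capitals mark each match. Pgk1, which makes the first ATP of glycolysis, lies on the plus strand at chrX:106186850-106187049 and has 2 matches, Bnip3, a mitophagy receptor, on the minus strand at chr7:138909557-138909756 has 4, Tpi1, which interconverts the triose phosphates, on the minus strand at chr6:124814209-124814408 has 0, and Hif1a on the plus strand at chr12:73907617-73907816 has 3.
Pgk1: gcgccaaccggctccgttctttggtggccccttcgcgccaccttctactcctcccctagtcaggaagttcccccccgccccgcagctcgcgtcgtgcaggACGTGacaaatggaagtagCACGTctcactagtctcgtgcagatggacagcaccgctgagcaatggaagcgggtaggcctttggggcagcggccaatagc
Bnip3: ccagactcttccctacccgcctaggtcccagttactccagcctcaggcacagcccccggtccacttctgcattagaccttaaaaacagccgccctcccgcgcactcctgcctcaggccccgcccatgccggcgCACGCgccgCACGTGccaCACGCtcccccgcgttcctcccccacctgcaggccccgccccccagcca
Tpi1: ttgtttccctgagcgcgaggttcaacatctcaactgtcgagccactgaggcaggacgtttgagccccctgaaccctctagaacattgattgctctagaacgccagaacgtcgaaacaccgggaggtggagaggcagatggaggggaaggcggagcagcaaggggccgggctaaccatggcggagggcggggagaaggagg
Hif1a: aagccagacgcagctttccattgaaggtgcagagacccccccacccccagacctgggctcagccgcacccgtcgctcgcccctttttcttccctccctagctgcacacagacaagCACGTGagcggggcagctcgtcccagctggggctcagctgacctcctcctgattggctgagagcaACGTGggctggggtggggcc
Of the 38 genes 34 were in the promoter table, and 26 of these (76.471%) had a match in at least 1 promoter, against 34.364% of all 27025 genes in the table. Counted by promoter, 33 of the 47 windows of these genes held a match, against 31.579% of 32851 windows. A match describes letters in this window and is not a binding site, and no match says only that these letters are not in it.

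Depth differed between the data types and between treatments. Bulk libraries held 58905704 to 73361005 counted reads in SHP099 and 51939301 to 52844715 in Vehicle. The 44986 cells of the matrix had medians per mouse of 1440 to 1612 UMIs (transcripts counted once each) in SHP099, 2502 to 2732 in SX682, 1532 to 1633 in Combo and 2824 to 4838 in Vehicle, and 1009 cell barcodes occurred in more than 1 pool. Cells were summed per mouse over the authors' 33 clusters (C1 to C33), over 6 neutrophil states, which are clusters C28 to C33, and over 9 T cell states. Clusters carry no names and were given classes here from marker genes. C21 and C23, which held the tumour epithelial markers Krt8, Krt18, Krt19, Krt7, Epcam, Cldn4, Lgals4 and Anxa8, are called tumour-like. They held 219 SHP099, 722 SX682, 926 Combo and 2226 Vehicle cells. The 3 mice of a treatment went through the same capture, so a capture effect and a drug effect cannot be told apart in the single-cell data, and the hashtagged mice are the replicates.

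Levels in Vehicle mice show where these genes are expressed (CPM, each gene's UMIs scaled to a common total per mouse, here without TMM factors, mean ± SD over mice, a description with no test since the clusters were made from these cells). Ldha, the lactate dehydrogenase subunit of glycolytic tissue, was highest in tumour-like C21, with 1930.5 ± 148 CPM, followed by unnamed C22 with 1581 ± 486, tumour-like C23 with 1346 ± 133 and fibroblast-like C20 with 1166 ± 208 CPM. C22 rests on 2 Vehicle mice with at most 15 cells each, and its SD spans the values of C21 and C23. Gapdh, the dehydrogenase in the middle of the pathway, also led in C21 (5421 ± 196 CPM) and was next in C22 (4146 ± 305 CPM) and C23 (3574 ± 117 CPM). Pgk1 stood at 1405 ± 391 CPM in C22 and 1266 ± 136 CPM in C21, within the spread of C22, and at 698 ± 88.6 CPM in C23. Aldoa, the aldolase that cleaves fructose bisphosphate, stood at 1353 ± 54.7 CPM in C21, 1096 ± 107 in C20 and 1041 ± 73.2 in macrophage-like C16.

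Some transporters and the oxygen sensor Egln3 had their highest means in neutrophil states. Slc16a3, the lactate exporter induced by hypoxia, peaked in the neutrophil states C33 (1040.1 ± 88.6 CPM) and C32 (810.3 ± 159.5 CPM). Slc2a3, the high-affinity glucose transporter, was highest in C33 (139.5 ± 84.5 CPM), whereas Slc16a1, the transporter that works in both directions, was highest in tumour-like C21 (65.1 ± 2.87 CPM). Egln3, the prolyl hydroxylase that HIF itself induces, stood at 367 ± 192 CPM in neutrophil state C32 and 213 ± 26.8 CPM in fibroblast-like C20. Slc2a1, the main glucose transporter of tumour cells, stood at 248 ± 114 CPM in C32 and 174 ± 25.9 in C21, within the spread of C32. Ankrd37, a small ankyrin protein and HIF target, stood at 364 ± 221 CPM in endothelial-like C10 and 159.6 ± 14.8 CPM in C21. Car9, the carbonic anhydrase used as a hypoxia marker, was highest in fibroblast-like C20 (39.7 ± 13.1 CPM). Ldhb, the lactate dehydrogenase subunit of oxidative tissue, was highest in alveolar and airway epithelium C24 (186 ± 73.1 CPM, 2 mice) and in C20 (130.2 ± 13.2 CPM). By Pearson correlation over the 33 clusters of log2 CPM, the genes most like the mean of Pgk1, Ldha and Aldoa among 5175 genes were Pgk1 (0.943), Ldha (0.930), Gapdh (0.919), Fam162a (0.891) and Aldoa (0.859), of which Pgk1, Ldha and Aldoa are part of the mean itself. Points here share libraries and depth, and Fam162a, a mitochondrial protein gene known as a HIF target, was the only one of the 5 outside the 38.

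**Figure D1:**
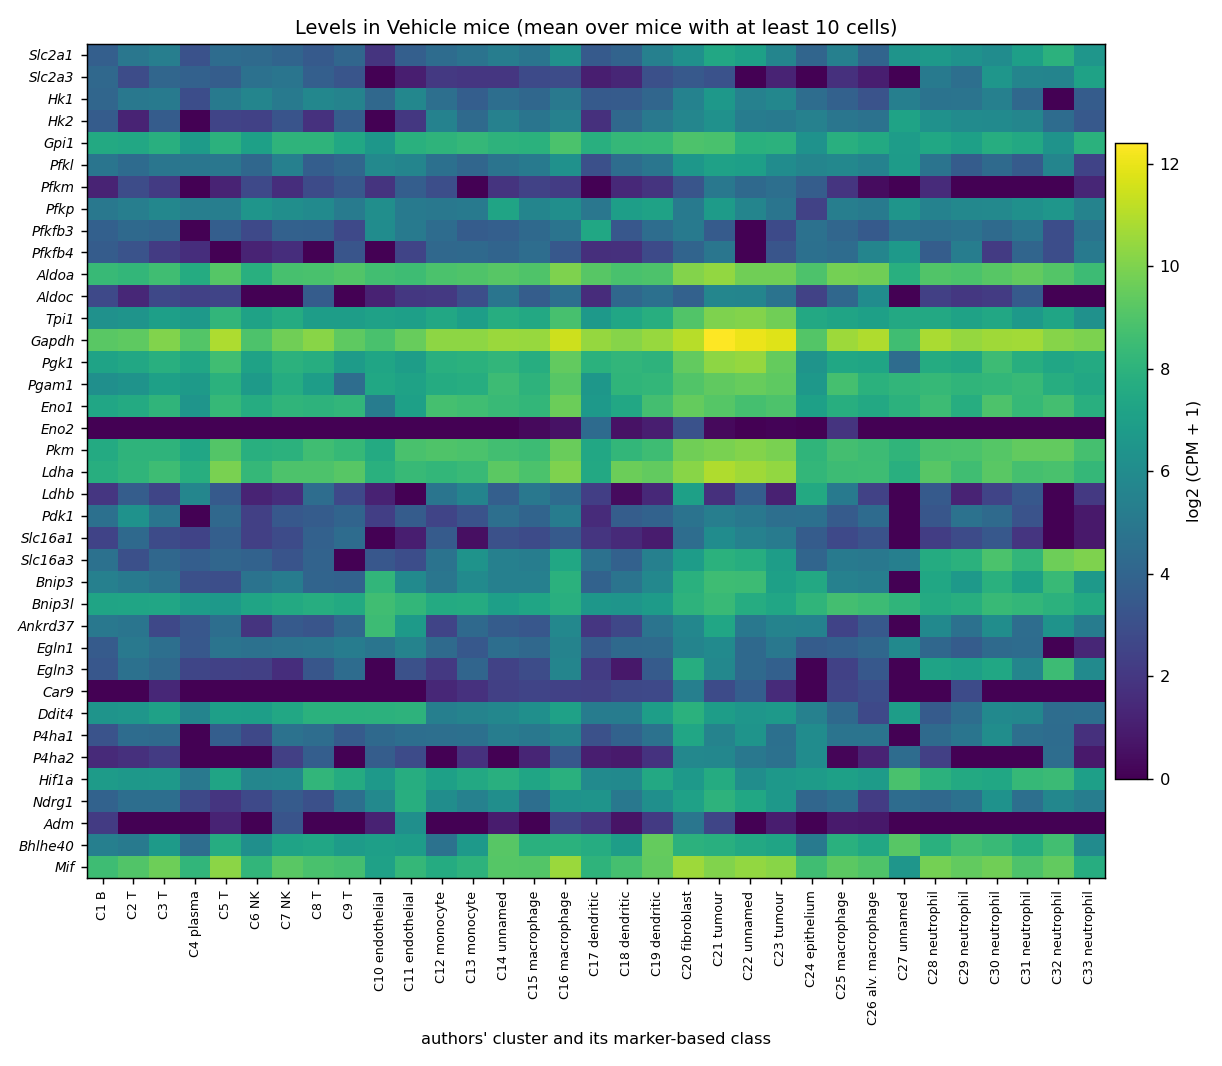
Level of each of the 38 genes (rows) in each of the 33 clusters (columns) in Vehicle mice, as log2(CPM + 1) of the mean over mice with at least 10 cells. Yellow marks high levels: the tumour-like columns C21 and C23 are bright for Aldoa, Gapdh, Pgk1 and Ldha. The neutrophil columns C28 to C33 are bright for Slc16a3, Hif1a and Bhlhe40.

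In sorted Epcam+ bulk cells, 0 of the 38 genes passed the test after SHP099 (edgeR quasi-likelihood test, Benjamini-Hochberg adjustment, threshold 0.05), where 0.113% of all 20314 tested genes passed. At an unadjusted p under 0.05 there were 7 of the 38, where 8.92% of all genes passed, and DESeq2 called 3 lower, where it called 2.93% of all genes. The median log2 fold change of the 38 was -0.17, against -0.001 for all genes tested. The 8 tumour markers summed to 9696 to 11692 CPM in SHP099 and 11705 to 13404 CPM in Vehicle libraries, with none at 0. Fewer cells of a type and less RNA per cell cannot be told apart in bulk samples.

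Slc2a3 had 1.09, 2.59 and 1.27 CPM in SHP099 libraries, against 5.41, 11.4 and 5.07 CPM in Vehicle libraries, or -2.15 ± 0.47 (SE, adjusted p = 0.176) as a log2 fold change. Car9 had 13.4, 12.97 and 6.21 CPM in SHP099 libraries, against 27.98, 41.9 and 20.2 CPM in Vehicle libraries, or -1.47 ± 0.36 (SE, adjusted p = 0.231). Ldhb had 12.0025, 13.6 and 8.04 CPM in SHP099 libraries, against 16.3, 30.4 and 22.7 CPM in Vehicle libraries, or -1.05 ± 0.28 (SE, adjusted p = 0.276). In these 3 genes, the ones that DESeq2 called (adjusted p = 0.000368, 0.00568 and 0.0268), every SHP099 library lay below every Vehicle library. They are also genes whose highest single-cell levels lay in other clusters than the tumour-like ones, and some marker lists of other cells moved with treatment in the same libraries. The summed level of 7 alveolar and airway markers was 623 to 1082 CPM in SHP099 and 3451 to 6920.3 CPM in Vehicle, that of 5 fibroblast markers 413 to 785 CPM in SHP099 and 1239 to 2249.9 CPM in Vehicle, and that of 6 macrophage markers 110.1 to 332 CPM in SHP099 and 449 to 519 CPM in Vehicle, with no marker of these lists at 0. The neutrophil markers, of the class where Slc2a3 was highest, overlapped, at 33.9 to 81.1 CPM in SHP099 and 35.1 to 71.8 CPM in Vehicle. Lists of the remaining cell types, among them monocytes, dendritic and endothelial cells, overlapped too. The part of any of these lists in the result was not tested.

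The genes most often read as glycolysis and hypoxia markers were closer together in bulk. Pdk1, the kinase that keeps pyruvate out of the mitochondrion, had 100.2, 69.3 and 97.1 CPM in SHP099 libraries, against 118, 143 and 122 CPM in Vehicle libraries, or -0.52 ± 0.16 (SE, adjusted p = 0.354), with no overlap. Slc2a1 had 244, 212 and 223 CPM in SHP099 libraries, against 350.3, 345 and 230.3 CPM in Vehicle libraries, or -0.45 ± 0.17 (SE, adjusted p = 0.491). Pgk1 had 156, 145 and 189 CPM in SHP099 libraries, against 218, 197 and 174 CPM in Vehicle libraries, or -0.27 ± 0.13 (SE, adjusted p = 0.638). For Slc2a1 and Pgk1 the groups overlapped through Vehicle library 3, the lowest of its group. Ldha had 3114, 2858 and 3288 CPM in SHP099 libraries, against 4015, 3539 and 2879 CPM in Vehicle libraries, or -0.17 ± 0.15 (SE, adjusted p = 0.781). Bnip3 had 234, 165 and 179 CPM in SHP099 libraries, against 272, 249.9 and 202 CPM in Vehicle libraries, or -0.33 ± 0.17 (SE, adjusted p = 0.645). Hif1a had 234, 208 and 199 CPM in SHP099 libraries, against 229, 239 and 236 CPM in Vehicle libraries, or -0.14 ± 0.10 (SE, adjusted p = 0.743). These 3 genes overlapped as well, and Hk1, Pfkfb4 and Slc16a1 completed the 7 of 38 genes whose groups did not, a share near the 14.9% of all genes tested whose groups did not overlap. Counting ignored strand, so reads in exon bases shared with other genes cannot be told apart from reads of those genes. Such bases lie in Slc2a1, Hk1, Gpi1, Pfkm, Pfkp, Aldoa, Tpi1, Gapdh, Pkm, Bnip3, Ankrd37, Car9, Hif1a, Ndrg1 and Bhlhe40.

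In tumour-like single cells, SHP099 lowered 20 of the 36 genes that passed the filter on low counts (Eno2 and Adm did not), and raised 0, where 13.5% of all tested genes were called. Their median log2 fold change was -0.92, against 0.01 for all genes. Enzymes of every step from Gpi1 to Ldha except that of Gapdh were among them, together with the lactate exporter Slc16a3 and the HIF targets Pdk1, Bnip3, Ankrd37 and P4ha2. The groups did not overlap for 26 of the 36 genes, against 33.5% of all genes tested. With any 1 of the 12 mice left out, 12 to 24 genes were called, and 12 of the 20 kept their call each time. The share of all genes called in those fits is not given.

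At the entry of the pathway, Slc2a1 had 37.3, 35.2 and 44.9 CPM in SHP099 mice, against 84.3, 84.7 and 125 CPM in Vehicle mice, or -1.33 ± 0.38 (SE, adjusted p = 0.0321) on the log2 scale. Gpi1, which turns glucose phosphate into fructose phosphate, had 188, 173 and 159.7 CPM in SHP099 mice, against 337, 313 and 341 CPM in Vehicle mice, or -0.93 ± 0.15 (SE, adjusted p = 0.00184). Every SHP099 mouse lay below every Vehicle mouse for both. Slc2a1 lost its call without SHP099 mouse 1, 2 or 3 or Vehicle mouse 3 (highest adjusted p = 0.123), and Gpi1 kept its call throughout. The hexokinase Hk2, which traps glucose in the cell, had 51.2, 48.2 and 94.2 CPM in SHP099 mice, against 43.9, 43.9 and 61.1 CPM in Vehicle mice, or 0.36 ± 0.33 (SE, adjusted p = 0.518), and Hk1 gave -0.47 ± 0.19 (SE, adjusted p = 0.127). Neither hexokinase passed, and the Hk2 groups overlapped with SHP099 mouse 3 the highest. Of the phosphofructokinases, which commit sugar to glycolysis, the liver type Pfkl fell (-1.17 ± 0.25, SE, adjusted p = 0.00766), the platelet type Pfkp fell (-1.26 ± 0.30, SE, adjusted p = 0.0149) and the muscle type Pfkm gave -0.11 (adjusted p = 0.763). Pfkp lost its call without SHP099 mouse 1 or 2 (highest adjusted p = 0.0623).

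The enzymes from aldolase to pyruvate kinase, except Gapdh, also fell. Aldoa had 479.9, 428 and 400.2 CPM in SHP099 mice, against 1066, 968 and 1095 CPM in Vehicle mice, or -1.26 ± 0.16 (SE, adjusted p = 0.000230). Tpi1 had 397, 421 and 414 CPM in SHP099 mice, against 948, 869 and 973 CPM in Vehicle mice, or -1.18 ± 0.13 (SE, adjusted p = 9.00e-05). Pgk1 had 301, 279 and 237 CPM in SHP099 mice, against 1015, 782 and 973 CPM in Vehicle mice, or -1.76 ± 0.18 (SE, adjusted p = 6.29e-05). In these 3 genes the SHP099 mice lay close together and far below the Vehicle mice, and each kept its call without any 1 mouse. Pkm, the pyruvate kinase, had 530.2, 469 and 446 CPM in SHP099 mice, against 1055, 940.1 and 963 CPM in Vehicle mice, or -1.03 ± 0.10 (SE, adjusted p = 3.12e-05). The phosphoglycerate mutase Pgam1 gave -1.07 ± 0.14 (SE, adjusted p = 0.000298), the enolase Eno1 -0.61 ± 0.11 (SE, adjusted p = 0.00343) and the second aldolase Aldoc -1.14 ± 0.24 (SE, adjusted p = 0.00731). These fell too, and Aldoc alone of the 4 lost its call, without SHP099 mouse 2 (adjusted p = 0.0523). Gapdh had 2801, 3213 and 3548 CPM in SHP099 mice, against 4409.5, 4109 and 4479.8 CPM in Vehicle mice, without overlap, but at -0.44 ± 0.17 (SE, adjusted p = 0.0983) it did not pass. Mif, a cytokine gene that HIF can induce, fell by less than most (-0.59 ± 0.12, SE, adjusted p = 0.00773).

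At the lactate end, Ldha had 639.5, 655 and 534 CPM in SHP099 mice, against 1587, 1411 and 1798 CPM in Vehicle mice, or -1.39 ± 0.15 (SE, adjusted p = 0.000101). Slc16a3 had 53.8, 30.6 and 33.2 CPM in SHP099 mice, against 197, 135 and 167 CPM in Vehicle mice, or -2.10 ± 0.36 (SE, adjusted p = 0.00212). Neither overlapped, and both kept their calls without any 1 mouse, whereas Slc16a1 had 54.7, 37.1 and 46.7 CPM in SHP099 mice, against 46.4, 44.4 and 49.9 CPM in Vehicle mice, and gave -0.04 (adjusted p = 0.922). Pdk1 had 13.9, 2.61 and 6.28 CPM in SHP099 mice, against 30.9, 25.5 and 28.2 CPM in Vehicle mice, or -1.97 ± 0.45 (SE, adjusted p = 0.0111). The Pdk1 values of SHP099 mice rest on 16, 4 and 7 UMIs. Its change was -2.75 without SHP099 mouse 1, and its call was lost without SHP099 mouse 2 (adjusted p = 0.0737).

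Among the genes of the hypoxia response, Bnip3 had 93.7, 28.7 and 37.7 CPM in SHP099 mice, against 241, 193 and 233 CPM in Vehicle mice, or -2.09 ± 0.47 (SE, adjusted p = 0.0111). Its relative Bnip3l had 102, 104 and 103 CPM in SHP099 mice, against 227, 223 and 243 CPM in Vehicle mice, or -1.17 ± 0.15 (SE, adjusted p = 0.000360). Ankrd37 had 11.3, 16.9 and 23.3 CPM in SHP099 mice, against 86.5, 87.6 and 92.05 CPM in Vehicle mice, or -2.37 ± 0.59 (SE, adjusted p = 0.0174). All 3 fell without overlap, with SHP099 mouse 1 the highest of its group for Bnip3. Bnip3 lost its call without SHP099 mouse 2 or 3 (highest adjusted p = 0.0660) and gave -2.76 without SHP099 mouse 1, and Ankrd37 lost its call without SHP099 mouse 1 or 2 (highest adjusted p = 0.0757). P4ha2, a collagen prolyl hydroxylase, gave -1.76 ± 0.45 (SE, adjusted p = 0.0210) and lost its call without SHP099 mouse 2 or 3 or Vehicle mouse 1 (highest adjusted p = 0.0929). The oxygen sensor Egln1 gave -0.91 ± 0.23 (SE, adjusted p = 0.0211) and lost its call without SHP099 mouse 2 or 3 or Vehicle mouse 1 or 3 (highest adjusted p = 0.0828).

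Hif1a had 129, 137 and 141 CPM in SHP099 mice, against 126, 116 and 175 CPM in Vehicle mice, or -0.03 ± 0.15 (SE, adjusted p = 0.931). The groups overlapped fully, with Vehicle mouse 3 the highest of all. Other HIF targets that did not pass were Egln3 (-0.94, adjusted p = 0.117), P4ha1 (-0.90, adjusted p = 0.0842), the stress gene Ddit4 (-0.57, adjusted p = 0.0785), Ndrg1 (0.03, adjusted p = 0.961) and the repressor gene Bhlhe40 (0.16, adjusted p = 0.491), and Car9, at 0 to 3.89 CPM in all 6 mice, was too low to read (-0.92, adjusted p = 0.512).

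Other measures moved with treatment in these cells. Tumour-like cells of SHP099 mice had 15285 to 20203 UMIs per cell, against 13372 to 13954 in Vehicle mice, and numbered 57 to 84 per mouse, against 523 to 1123 in Vehicle mice. They are a sum over C21 and C23, whose cell numbers shifted with treatment. In Vehicle mice Pgk1, Ldha and Gapdh stood higher in C21 than in C23. The part of that shift in the falls and in the UMIs per cell was not tested. Fits of each cluster apart are given below. The summed level of the 8 tumour markers was 7147 to 10139 CPM in SHP099 and 10673 to 13320.0 CPM in Vehicle, that of 7 neutrophil markers 1132 to 2825 CPM in SHP099 and 2550.4 to 4005 CPM in Vehicle, and that of 6 macrophage markers 16.5 to 23.5 CPM in SHP099 and 349.9 to 399 CPM in Vehicle. In tumour-like cells with at most 1% of their UMIs from markers of other cells, a choice made after seeing the data, 18 genes were called, all lower (13.2% of all genes there), and Slc2a1 (adjusted p = 0.0505) and Egln1 (adjusted p = 0.0521) were not. Those markers left out the alveolar and airway, plasma and proliferation lists, so cells with RNA of alveolar, airway or plasma cells were not removed. Proliferation markers summed to 288 to 524 CPM in SHP099 and 369 to 404 CPM in Vehicle mice, which overlap.

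**Figure D2:**
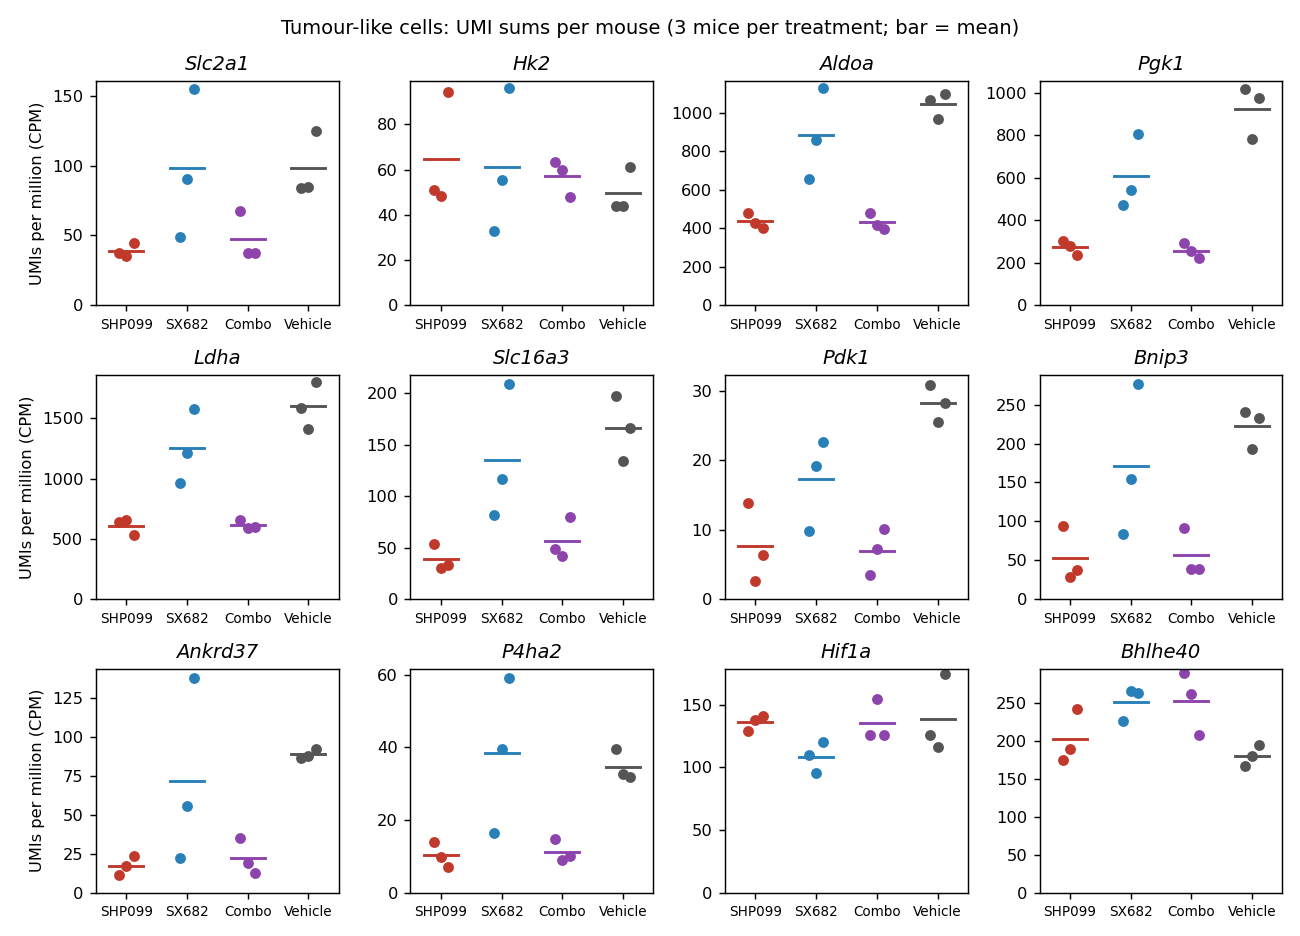
CPM in tumour-like cells for 12 of the genes, 1 point per mouse and a bar at the mean of 3 mice, with SHP099, SX682 and Combo left of Vehicle. Pgk1, Ldha and Aldoa lie far below Vehicle in SHP099 and Combo mice, and SX682 mice spread between. For Hif1a each drug group overlaps with Vehicle, and SX682 mice lie below SHP099 and Combo mice.

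The bulk and single-cell results of SHP099 stand apart in size, and the difference between them was not tested. Of the 20 genes called in tumour-like cells, 0 were called in bulk, and 18 had a log2 fold change below 0 there. Ankrd37 gave -2.37 in tumour-like cells and 0.17 in bulk, and Tpi1 -1.18 and 0.02. The mice, the cell selection and the libraries all differ between the 2 data types, and these cannot be told apart.

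**Figure D3:**
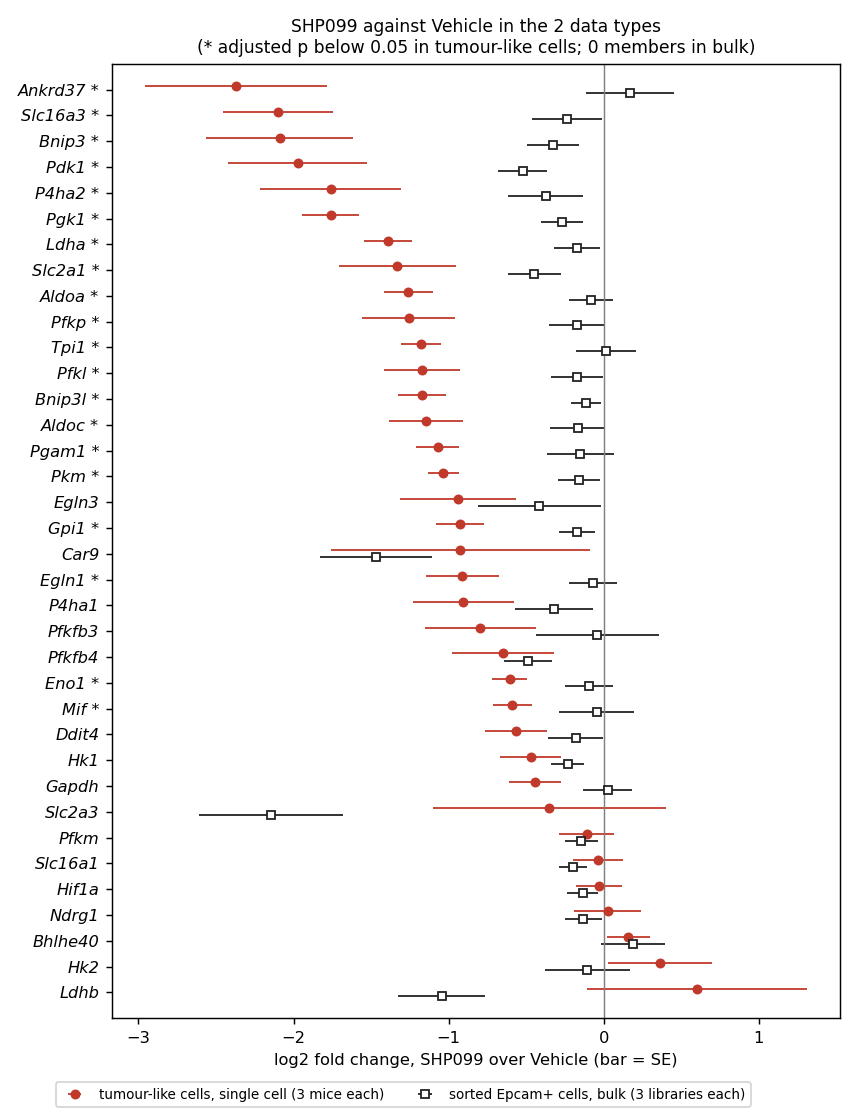
Log2 fold change of SHP099 over Vehicle with its SE for the 36 genes tested in tumour-like cells (red circles, 3 mice each) and in sorted Epcam+ bulk cells (open squares, 3 libraries each), ordered by the single-cell value. Most red points lie between -0.5 and -2.4, whereas most squares lie within 0.5 of 0, apart from Slc2a3, Car9 and Ldhb.

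After the combination, glycolytic enzymes and HIF targets were again lower in tumour-like cells. Of the 36 genes 21 fell and 1, Bhlhe40, rose (10.3% of all genes called), with a median of -0.88, against 0.01 for all genes, and 26 of the 36 without overlap, against 34.7% of all genes. The Vehicle mice are those of the SHP099 comparison, so the 2 counts are not independent. Pgk1 had 291, 255 and 221 CPM in Combo mice, or -1.85 ± 0.18 (SE, adjusted p = 0.000102). Ldha had 659, 587 and 602 CPM in Combo mice, or -1.38 ± 0.15 (SE, adjusted p = 0.000273). Slc16a3 had 48.6, 41.8 and 80.1 CPM in Combo mice, or -1.57 ± 0.31 (SE, adjusted p = 0.00761). Every Combo mouse lay below every Vehicle mouse for the 3 genes.

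Tpi1 had 396, 345 and 322 CPM in Combo mice (-1.39 ± 0.13, SE, adjusted p = 6.96e-05), Aldoa had 478, 417 and 398 CPM (-1.28 ± 0.15, SE, adjusted p = 0.000362) and Pkm had 439, 461 and 417 CPM (-1.17 ± 0.10, SE, adjusted p = 3.74e-05). Gapdh, which missed after SHP099, had 2853, 2519 and 2206 CPM in Combo mice and fell (-0.78 ± 0.17, SE, adjusted p = 0.0114). All Combo mice again lay below the Vehicle mice. Also lower were Aldoc (-1.31, adjusted p = 0.00164), Pfkl (-1.19, adjusted p = 0.00528), Gpi1 (-1.04, adjusted p = 0.000996), Pgam1 (-1.01, adjusted p = 0.000632), Egln1 (-0.99, adjusted p = 0.00895), Bnip3l (-0.98, adjusted p = 0.00125), Mif (-0.69, adjusted p = 0.00406) and Eno1 (-0.57, adjusted p = 0.00642). Slc2a1 had 67.2, 37.3 and 37.4 CPM in Combo mice and missed the threshold (-1.06 ± 0.33, SE, adjusted p = 0.0583), and Hif1a had 126, 155 and 126 CPM (-0.03 ± 0.14, SE, adjusted p = 0.936).

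Pdk1 had 3.42, 7.27 and 10.1 CPM in Combo mice, or -2.03 ± 0.36 (SE, adjusted p = 0.00407). Bnip3 had 90.7, 38.4 and 39.0 CPM in Combo mice, or -2.01 ± 0.43 (SE, adjusted p = 0.0117). Ankrd37 had 34.9, 18.9 and 12.5 CPM in Combo mice, or -2.01 ± 0.49 (SE, adjusted p = 0.0208). Combo mouse 1 was the highest of its group for Bnip3 and Ankrd37, and no group overlapped with Vehicle. P4ha2 had 14.8, 9.09 and 10.1 CPM in Combo mice, or -1.65 ± 0.37 (SE, adjusted p = 0.0132). With any 1 mouse left out, 17 of the 22 calls held. Ankrd37 was lost without Combo mouse 2 or 3 (highest adjusted p = 0.0785) and P4ha2 without Combo mouse 2 (adjusted p = 0.0620). Ddit4 (-0.67, adjusted p = 0.0361) and Hk1 (-0.63, adjusted p = 0.0401) lost their calls without any one of Combo mice 1 to 3 or Vehicle mice 1 to 3 (highest adjusted p = 0.133 and 0.118). Bhlhe40 had 289.7, 262 and 209 CPM in Combo mice, against 168, 181 and 195 CPM in Vehicle mice (0.49 ± 0.13, SE, adjusted p = 0.0332), and was lost without Combo mouse 1 or 2 or any Vehicle mouse (highest adjusted p = 0.136). Combo tumour-like cells had 9525 to 10544 UMIs per cell, a tumour-marker sum of 6894 to 7972 CPM and a neutrophil-marker sum of 3027 to 6284 CPM. Among cells with at most 1% of UMIs from the same markers of other cells as for SHP099, 22 genes were called (10.3% of all genes). There Slc2a1 was gained and Bhlhe40 lost (adjusted p = 0.0725).

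SX682 alone changed 0 of the 36 genes in tumour-like cells (0.364% of all genes called), with 9 at an unadjusted p under 0.05 (9.97% of all genes). DESeq2 called 2 of the 21 members it tested, 1 of them lower, where it called 5.78% of all genes. Pgk1 had 469, 543.98 and 806 CPM in SX682 mice, or -0.61 ± 0.17 (SE, adjusted p = 0.205). Ldha had 961, 1216 and 1575 CPM in SX682 mice, or -0.36 ± 0.15 (SE, adjusted p = 0.442). Bnip3 had 83.4, 154 and 276 CPM in SX682 mice, or -0.42 ± 0.41 (SE, adjusted p = 0.818). SX682 mouse 1 was the lowest and mouse 3 the highest of its group for all 3, and each overlapped with Vehicle. Slc2a1 had 49.2, 90.5 and 155 CPM in SX682 mice (-0.05, adjusted p = 0.996) and Hif1a 109.7, 95.8 and 120.3 CPM (-0.36, adjusted p = 0.424). Of the 36 genes only Pdk1 and Bhlhe40 showed no overlap with Vehicle, against 18.1% of all genes.

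Set against the single drugs, Combo differed from SX682 and not detectably from SHP099. Against SX682, 15 genes were lower (3.75% of all genes called, median -0.74), and 9 of the calls held without any 1 mouse, those of Gpi1, Aldoa, Tpi1, Gapdh, Pgk1, Pgam1, Eno1, Pkm and Ldha. Of these Pgk1 gave -1.24 ± 0.18 (SE, adjusted p = 0.00113), Tpi1 -1.16 ± 0.13 (SE, adjusted p = 0.000100), Ldha -1.02 ± 0.15 (SE, adjusted p = 0.00141) and Gapdh -0.96 ± 0.17 (SE, adjusted p = 0.00523). For each of the 9 every Combo mouse lay below every SX682 mouse. Fitted on these 2 treatments alone, 9 genes were called, and the share of all genes called in that fit is not given. Against SHP099, 0 genes were called (1.57% of all genes), 2 had an unadjusted p under 0.05 (17.1% of all genes), and DESeq2 called 0 (4.28%). Pgk1 gave -0.09 ± 0.18 (SE, adjusted p = 0.862), Ldha 0.01 ± 0.15 (SE, adjusted p = 0.984) and Bnip3 0.08 ± 0.50 (SE, adjusted p = 0.963), and an adjusted p that misses the threshold does not show that the levels were equal.

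The 2 tumour-like clusters were also fitted apart. After SHP099, 14 of 34 genes fell in C21 (5.56% of all genes called), of which 7 held without any 1 mouse (Aldoa, Tpi1, Pgk1, Eno1, Pkm, Ldha and Bnip3l). In C23, 19 of 33 fell and 2 rose (13.6% of all genes), and 13 calls held. There Bnip3 had 44.8, 13.8 and 25.97 CPM in SHP099 mice, against 141, 124 and 139 CPM in Vehicle mice (-2.34 ± 0.38, SE, adjusted p = 0.000869). Slc16a3 had 33.9, 13.8 and 31.4 CPM in SHP099 mice, against 135, 90.9 and 143 CPM in Vehicle mice (-2.29 ± 0.33, SE, adjusted p = 0.000337). Both calls held without any 1 mouse and the groups did not overlap. Hk2 went the other way in C23, with 58.1, 48.2 and 90.9 CPM in SHP099 mice, against 29.3, 30.97 and 39.8 CPM in Vehicle mice (0.97 ± 0.23, SE, adjusted p = 0.0103). Its call was lost without SHP099 mouse 3 or Vehicle mouse 1 (highest adjusted p = 0.0803), and that of Ndrg1 (0.60, adjusted p = 0.0407) was lost without SHP099 mouse 1 or 3, Combo mouse 2 or 3 or any Vehicle mouse (highest adjusted p = 0.242). After Combo 22 genes fell in C21 (9.81% of all genes) and 20 in C23 (8.91%).

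In neutrophils taken as a whole, the set split. After SHP099, 9 of 30 tested genes fell and 3 rose (13.1% of all genes called), with a median of -0.36, against 0.01 for all genes, and 16 of the 30 without overlap, against 29.5% of all genes. Hk2 had 91.8, 128 and 141 CPM in SHP099 mice, against 47.2, 58.6 and 52.3 CPM in Vehicle mice, or 1.19 ± 0.24 (SE, adjusted p = 0.00278). Egln3 had 201.3, 174 and 200.4 CPM in SHP099 mice, against 126, 117 and 123 CPM in Vehicle mice, or 0.65 ± 0.13 (SE, adjusted p = 0.00219). Both rose without overlap, and both kept their calls without any 1 mouse. The mix of states also moved: C33 held 619 of 1739 neutrophils in Vehicle mice and 381 of 2823 in SHP099 mice. C30 held 143 in Vehicle and 674 in SHP099 mice, and C32 held 84 and 301. In Vehicle mice Egln3 averaged 60.4 CPM in C33, 164 CPM in C30 and 367 CPM in C32, and by state it was called only in C33. The part of the state mix in these results was not tested. Bhlhe40 had 457, 376 and 389 CPM in SHP099 mice, against 209.7, 264 and 314 CPM in Vehicle mice, or 0.67 ± 0.16 (SE, adjusted p = 0.00785), and lost its call without Vehicle mouse 1 (adjusted p = 0.0738).

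Glycolytic enzymes were among those that fell. Aldoa had 266, 347 and 339 CPM in SHP099 mice, against 541, 546 and 599 CPM in Vehicle mice, or -0.82 ± 0.15 (SE, adjusted p = 0.00104). Gpi1 had 118, 111 and 121 CPM in SHP099 mice, against 241, 178 and 175 CPM in Vehicle mice, or -0.80 ± 0.14 (SE, adjusted p = 0.000954). Pgk1 had 125, 149.5 and 108 CPM in SHP099 mice, against 206, 207 and 289 CPM in Vehicle mice, or -0.83 ± 0.18 (SE, adjusted p = 0.00370). In all 3 every SHP099 mouse lay below every Vehicle mouse, and the calls held without any 1 mouse. Bnip3 had 65.8, 88.1 and 84.8 CPM in SHP099 mice, against 179, 101 and 191 CPM in Vehicle mice, or -0.97 ± 0.22 (SE, adjusted p = 0.00645), and lost its call without Vehicle mouse 1 (adjusted p = 0.0690). Tpi1 (-1.003, adjusted p = 0.0239) was lost without SHP099 mouse 1 or 3 or Vehicle mouse 1 (highest adjusted p = 0.112), Pkm (-0.49, adjusted p = 0.0159) without SHP099 mouse 3 or Vehicle mouse 1 (highest adjusted p = 0.0800) and Bnip3l (-0.42, adjusted p = 0.0177) without SHP099 mouse 1 or 2 or Vehicle mouse 2 (highest adjusted p = 0.0749). Eno1 (-0.44, adjusted p = 0.0428) and Ddit4 (-0.996, adjusted p = 0.0486) were each lost in at least 8 of the 12 fits, up to an adjusted p of 0.155 without SHP099 mouse 3 and 0.652 without Vehicle mouse 1, where Ddit4 gave -0.39.

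Ldha had 322, 404 and 319 CPM in SHP099 mice, against 468, 441 and 556 CPM in Vehicle mice, and missed the threshold at -0.47 ± 0.16 (SE, adjusted p = 0.0591). Slc2a1 had 111, 91.6 and 105 CPM in SHP099 mice, against 115, 111 and 101 CPM in Vehicle mice (-0.11, adjusted p = 0.723), and Hif1a had 265, 285 and 278 CPM, against 229.6, 241 and 215 CPM (0.26, adjusted p = 0.287). The Slc2a1 groups overlapped and the Hif1a groups did not. Transcripts of tumour cells in the neutrophil libraries differed between treatments: the 8 tumour markers summed to 58.7 to 123 CPM in SHP099 and 388 to 518 CPM in Vehicle mice, with Cldn4 at 0 in both. Tumour RNA in proportion to those markers would carry 3.24 to 6.67 CPM of Aldoa in SHP099 and 34.8 to 44.3 CPM in Vehicle mice, where 262 to 364 CPM in SHP099 and 474 to 574 CPM in Vehicle mice were measured on unscaled totals. For Pgk1 that share was 2.03 to 3.95 CPM in SHP099 and 28.1 to 42.2 CPM in Vehicle mice, and 106 to 157 CPM in SHP099 and 180.4 to 277 CPM in Vehicle mice were measured. For Tpi1 it was 2.68 to 6.89 CPM in SHP099 and 31.3 to 39.4 CPM in Vehicle mice, and 45.9 to 107 CPM in SHP099 and 125 to 134 CPM in Vehicle mice were measured. The part of tumour RNA in the falls of these genes was not tested. In neutrophils with no UMI of a tumour marker, a choice made after seeing the data, 9 of the 12 calls held (10.7% of all genes), and those of Tpi1 (adjusted p = 0.0745), Bnip3l (adjusted p = 0.0929) and Ddit4 (adjusted p = 0.0503) did not. That choice kept 88.7 to 93.4% of the neutrophils of SHP099 mice and 68.4 to 71.9% of those of Vehicle mice. Tumour RNA without a UMI of the 8 markers stays in the kept cells.

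Combo gave 6 lower and 2 higher genes in neutrophils (6.45% of all genes called), against the same Vehicle mice. Gpi1 had 106, 98.5 and 90.5 CPM in Combo mice (-1.04 ± 0.14, SE, adjusted p = 0.000249) and Egln3 171, 193 and 186 CPM (0.59 ± 0.13, SE, adjusted p = 0.00871), both without overlap with Vehicle, and these 2 calls held without any 1 mouse. The mix of states moved here as well: C33 held 268 of 3264 neutrophils in Combo mice and 619 of 1739 in Vehicle mice. C30 held 956 in Combo and 143 in Vehicle mice, and C32 held 394 and 84. By state Egln3 was called in none after Combo, and the part of the state mix was not tested. Aldoa (-0.62, adjusted p = 0.0145), Pgk1 (-0.74, adjusted p = 0.0134), Pkm (-0.52, adjusted p = 0.0203), Bnip3 (-0.85, adjusted p = 0.0238), Bnip3l (-0.44, adjusted p = 0.0238) and Bhlhe40 (0.62, adjusted p = 0.0221) each lost their call without Combo mouse 2 and at least 1 other mouse (highest adjusted p = 0.0733, 0.0732, 0.103, 0.165, 0.0899 and 0.157). Hk2 had 77.7, 95.2 and 52.5 CPM in Combo mice and did not pass (0.54, adjusted p = 0.234), nor did Ldha (-0.41, adjusted p = 0.146), Slc2a1 (-0.27, adjusted p = 0.381) or Hif1a (0.21, adjusted p = 0.488). SX682 changed 0 genes (0.508% of all genes called, 3 of the tested members and 9.68% of all genes at an unadjusted p under 0.05, 0 members and 2.08% of all genes by DESeq2). Against SHP099, Combo gave 0 calls (1.18% of all genes, 1 member and 11.3% of all genes at an unadjusted p under 0.05, 0 members and 0.896% of all genes by DESeq2), and against SX682 it gave 3 lower genes and 1 higher (3.72%), of which Gpi1, lower (-0.80, adjusted p = 0.00259), held without any 1 mouse.

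By neutrophil state, SHP099 gave 18 lower and 6 higher calls (8.23% of all genes tested over the states), in cells that are also in the sum above. Aldoa fell in C28 (-0.83, adjusted p = 0.00529), C29 (-1.16, adjusted p = 0.00166) and C30 (-1.01, adjusted p = 0.00256), and these calls held without any 1 mouse, where 8.29%, 7.14% and 8.56% of all genes were called. Hk2 rose in C29 (1.49, adjusted p = 0.0115), C30 (1.12, adjusted p = 0.0366) and C31 (1.40, adjusted p = 0.0318, with 3.51% of all genes called), and lost each call without SHP099 mouse 2 or Vehicle mouse 1, among others (highest adjusted p = 0.0657, 0.478 and 0.176). In state C33, 3 of 17 genes rose, the transporters Slc16a3 and Slc2a3 and the sensor Egln3, a share near the 19.7% of all genes called there. Slc16a3 had 1933, 1729 and 1939 CPM in SHP099 mice, against 1308, 1222 and 1153 CPM in Vehicle mice (0.58 ± 0.15, SE, adjusted p = 0.00623), with no overlap and a call that held without any 1 mouse. The tumour markers summed to 55.7 to 89.1 CPM in SHP099 and 443 to 574 CPM in Vehicle mice in this state, and their part in the result was not tested. Slc2a3 had 278, 474 and 402 CPM in SHP099 mice, against 226, 213 and 51.2 CPM in Vehicle mice (0.90 ± 0.28, SE, adjusted p = 0.0256), and Egln3 181, 154 and 166 CPM, against 43.5, 44.8 and 128 CPM (1.65 ± 0.39, SE, adjusted p = 0.00393). Slc2a3 lost its call without SHP099 mouse 2 or 3 or any Vehicle mouse (highest adjusted p = 0.129) and Egln3 without Vehicle mouse 1 (adjusted p = 0.133).

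Whether the drug effect differed between tumour-like cells and neutrophils was tested on the difference within each mouse (limma). For SHP099, 10 members differed (3.85% of 7150 genes), each with a more negative change in tumour-like cells. Slc16a3 gave a difference of effects, tumour-like minus neutrophil, of -1.82 ± 0.29 (SE, adjusted p = 0.00197), Pfkl -1.75 ± 0.33 (SE, adjusted p = 0.00787), Ldha -0.89 ± 0.12 (SE, adjusted p = 0.000714), Pgk1 -0.89 ± 0.16 (SE, adjusted p = 0.00533) and Pgam1 -0.69 ± 0.14 (SE, adjusted p = 0.0114), and these 5 held without any 1 mouse. Egln3 changed by -0.94 in tumour-like cells and 0.65 in neutrophils, a difference of -1.55 ± 0.30 (SE, adjusted p = 0.00902). Both changes are of sums over clusters whose cell numbers shifted with treatment. In Vehicle mice Egln3 averaged 54.0 CPM in C21 and 12.8 CPM in C23, and after SHP099 it was called in neither. The part of that shift in these differences was not tested. Hk2 (-0.81, adjusted p = 0.0914), Bnip3 (-1.31, adjusted p = 0.124) and Hif1a (-0.27, adjusted p = 0.496) did not pass. For Combo 7 members differed (1.01% of genes), and 0 of these held in every fit with 1 mouse left out (0 to 9 calls). For SX682, 0 differed (0.028% of genes, 5 members and 7.33% of genes at an unadjusted p under 0.05). The SHP099 calls that did not hold were those of Slc2a1 (-1.20, adjusted p = 0.0280), Pfkp (-1.35, adjusted p = 0.0239), Pkm (-0.53, adjusted p = 0.0223), Ankrd37 (-1.99, adjusted p = 0.0345) and Egln3.

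**Figure D4:**
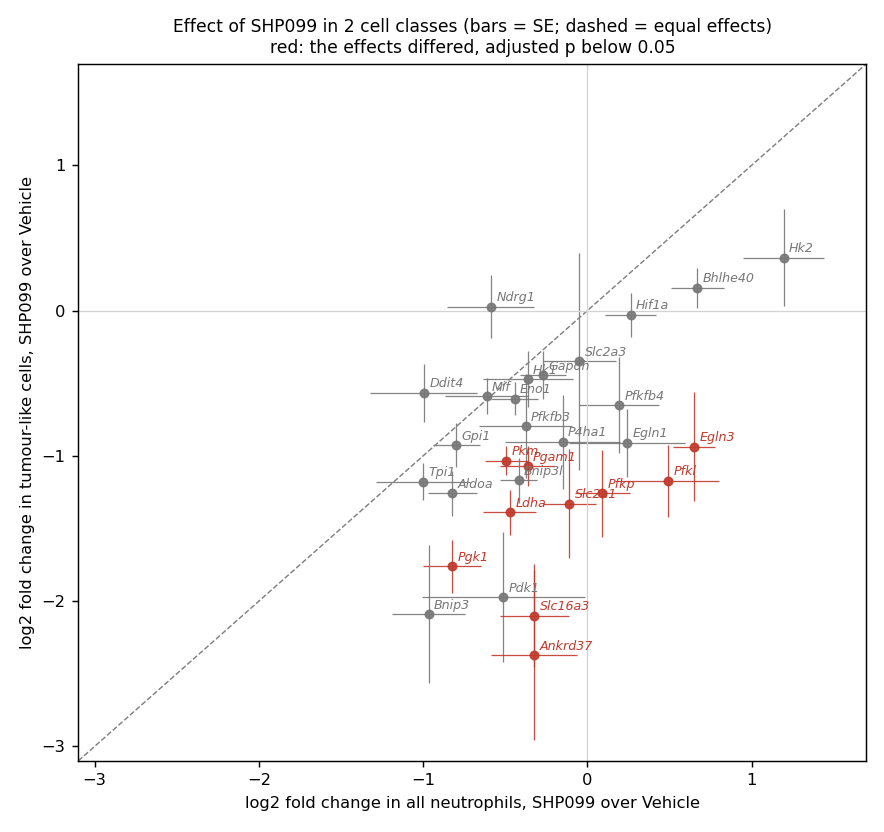
Log2 fold change of SHP099 over Vehicle in tumour-like cells (vertical axis) against that in all neutrophils (horizontal axis) for genes tested in both, with SE bars. Points below the dashed line changed more negatively in tumour-like cells, red marks genes whose effects differed (limma, adjusted p below 0.05), and Hk2 and Egln3 lie right of 0.

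In fibroblast-like C20 enzymes of glycolysis were lower in Combo mice, and SHP099 mice, with 16 such cells in all, were not tested. Of 33 genes 18 fell after Combo (3.43% of all genes called), with a median of -1.63, against -0.04 for all genes, and 27 of the 33 without overlap, against 25.6% of all genes. Pgk1 had 156, 182 and 58.0 CPM in Combo mice, against 784, 681 and 800.1 CPM in Vehicle mice, or -2.43 ± 0.35 (SE, adjusted p = 0.00460). Egln3 had 47.9, 47.2 and 11.6 CPM in Combo mice, against 202, 242 and 259.6 CPM in Vehicle mice, or -2.56 ± 0.32 (SE, adjusted p = 0.00346). Gpi1 had 138, 121 and 104 CPM in Combo mice, against 411, 657 and 567 CPM in Vehicle mice, or -2.14 ± 0.30 (SE, adjusted p = 0.00428). In each gene the highest Combo mouse lay far below the lowest Vehicle mouse, and Combo mouse 3 was the lowest of all.

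Pkm had 353, 243 and 162 CPM in Combo mice, against 901, 886 and 983 CPM in Vehicle mice (-1.82 ± 0.24, SE, adjusted p = 0.00346). Ldha had 311, 559.8 and 255 CPM in Combo mice, against 1075, 1505 and 1266 CPM in Vehicle mice (-1.75 ± 0.27, SE, adjusted p = 0.00589). Gapdh had 880.3, 911 and 638 CPM in Combo mice, against 2223, 2500.3 and 2443 CPM in Vehicle mice (-1.55 ± 0.19, SE, adjusted p = 0.00346). These and Eno1 (-1.84, adjusted p = 0.00346), Slc16a3 (-1.77, adjusted p = 0.0161), Tpi1 (-1.67, adjusted p = 0.00428), Bhlhe40 (-1.63, adjusted p = 0.00674) and Aldoa (-1.58, adjusted p = 0.00460) kept their calls without any 1 mouse. Bnip3 (-2.59, adjusted p = 0.0114), Hk2 (-2.15, adjusted p = 0.0332), Slc2a1 (-1.99, adjusted p = 0.0243), Ddit4 (-1.88, adjusted p = 0.0332), Pfkl (-1.69, adjusted p = 0.0493), Pgam1 (-1.65, adjusted p = 0.0108) and Mif (-1.58, adjusted p = 0.0198) fell too, and each call was lost without Combo mouse 2 or, for Ddit4, Combo mouse 3 (highest adjusted p = 0.163, for Pfkl), with Ddit4 at -2.72 without Combo mouse 2. Hif1a gave -0.47 (adjusted p = 0.400).

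In the same C20 cells, depth and other markers moved with treatment. UMIs per cell were 3939 to 4461 in Combo and 10010 to 15551 in Vehicle mice. The tumour markers summed to 254 to 464 CPM in Combo and 773 to 1372 CPM in Vehicle mice, with Cldn4 at 0 in both and Epcam at 0 in Combo, and the 4 proliferation markers to 127 to 165 CPM in Combo and 212 to 443 CPM in Vehicle. Fibroblast markers overlapped, with 7604 to 10573 CPM in Combo and 7505 to 10248 CPM in Vehicle. The part of these in the result was not tested. Against SX682, where 2 mice had enough cells, Combo gave 13 lower genes (8.04% of all genes), and against Vehicle SX682 gave 2 lower, Ankrd37 (-3.08, adjusted p = 0.0117) and Egln3 (-1.56, adjusted p = 0.0198), each lost without SX682 mouse 2 (0.655% of all genes).

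In endothelial-like C10, the Combo calls were all genes of the hypoxia and stress response. Ankrd37 had 35.9, 33.7 and 26.5 CPM in Combo mice, against 139.9, 465 and 490.3 CPM in Vehicle mice (-2.93 ± 0.54, SE, adjusted p = 0.00270). Bnip3 had 58.3, 56.2 and 39.7 CPM in Combo mice, against 256, 232 and 392.3 CPM in Vehicle mice (-2.32 ± 0.38, SE, adjusted p = 0.000780). Neither overlapped, both calls held without any 1 mouse, and Ankrd37 gave -3.84 without Vehicle mouse 1. Ddit4 fell too (-2.45, adjusted p = 0.000780) and lost its call without Vehicle mouse 1 (adjusted p = 0.163), in a cluster where 2.22% of all genes were called. SX682, with 2 mice, gave lower Ankrd37 (-2.58, adjusted p = 0.0202) and Bnip3 (-1.60, adjusted p = 0.0370), both lost without SX682 mouse 1 among others (0.454% of all genes), and SHP099 was not tested there. The tumour markers summed to 155 to 386 CPM in Combo and 110.4 to 222 CPM in Vehicle mice in C10.

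Summed over the clusters that could be tested, SHP099 gave 139 calls, 123 lower and 16 higher, where 6.78% of all gene tests were called. Aldoa was the gene called in the most clusters, lower in 18 of 27 with a median log2 fold change of -1.01, followed by Tpi1 in 15 of 24, Pkm in 12 of 27, Ldha in 10 of 27 and Pgk1 in 9 of 27. Ddit4 fell in 8 of 18. Higher calls came mainly from Hk2, in 6 of 13 clusters, and Hif1a, in 4 of 25. The cells of a pool share their library and free RNA, so clusters are not independent observations. The tumour-marker sum of every SHP099 mouse lay below that of every Vehicle mouse in 23 of the 26 clusters tested outside the tumour-like ones, and the part of tumour RNA in each cluster was not tested. Combo gave 114 lower and 3 higher calls (4% of all gene tests), SX682 gave 5 (0.391%), Combo against SHP099 gave 0 (0.545%, 52 member tests and 10.4% of all gene tests at an unadjusted p under 0.05, 2 and 1.05% by DESeq2), and Combo against SX682 gave 78 lower and 6 higher (3.95%).

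Lymphocytes and macrophages show which genes moved where. In B-cell-like C1, Ankrd37 had 8.89, 4.52 and 2.07 CPM in SHP099 mice, against 28.4, 35.6 and 33.03 CPM in Vehicle mice (-2.36 ± 0.46, SE, adjusted p = 0.00276), and Ddit4 had 22.2, 13.6 and 26.9 CPM, against 122, 53.4 and 92.5 CPM (-2.12 ± 0.35, SE, adjusted p = 0.000606). In NK-like C6, Aldoa had 141, 90.3 and 78.3 CPM in SHP099 mice, against 243, 279.9 and 237 CPM in Vehicle mice (-1.21 ± 0.22, SE, adjusted p = 0.000207). These 3 had no overlap and held without any 1 mouse, in clusters with 9.15% and 11.5% of all genes called. In T-cell-like C5, Mif had 675, 743 and 697 CPM in SHP099 mice, against 1445, 1282 and 1350.1 CPM in Vehicle mice (-0.95 ± 0.13, SE, adjusted p = 0.000324), and held as well, as did Pkm and Ldha there (5.45% of all genes). In C5 the macrophage markers summed to 22.5 to 35.6 CPM in SHP099 and 226 to 1814 CPM in Vehicle mice, and their part was not tested. In C15 and C25 the macrophage markers themselves summed to 12517 to 15306 CPM and 10658 to 15870.1 CPM in SHP099 mice, against 18124 to 20055 CPM and 20047 to 25369.8 CPM in Vehicle mice, and their part in these results was not tested. In macrophage-like C15 the transcript of Hif1a itself rose, with 230.5, 338 and 317 CPM in SHP099 mice, against 141, 149 and 192 CPM in Vehicle mice (0.89 ± 0.16, SE, adjusted p = 0.00467), a call that held without any 1 mouse (4.7% of all genes). In macrophage-like C25, Gapdh had 1844, 2153 and 1920.1 CPM in SHP099 mice, against 1422, 1619 and 1416 CPM in Vehicle mice, and rose (0.41 ± 0.09, SE, adjusted p = 0.00765), again without overlap and with a call that held (6.69%). The other Hif1a calls, in C5, C16 (0.323% of all genes called there) and C25, each lost their call without SHP099 mouse 2 or Vehicle mouse 1 (highest adjusted p = 0.182, 0.135 and 0.162).

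T cells divided into their 9 states, which split cells already in the clusters, gave 17 lower and 0 higher calls after SHP099 (7.35% of all gene tests). In state T6, 4 genes fell. Ddit4, which restrains mTOR under stress, had 94.5, 56.5 and 27.2 CPM in SHP099 mice, against 588, 368 and 266 CPM in Vehicle mice (-2.65 ± 0.44, SE, adjusted p = 0.000193). Aldoa had 284, 169.6 and 163 CPM in SHP099 mice, against 974, 463 and 761 CPM in Vehicle mice (-1.79 ± 0.29, SE, adjusted p = 0.000134). Both fell without overlap and held without any 1 mouse, and Ddit4 (-1.94, adjusted p = 3.91e-05) and Aldoa (-1.21, adjusted p = 2.07e-05) held in T3 as well, with 9.12% and 9.2% of all genes called in T6 and T3. Combo gave 9 lower calls (2.09%), of which 0 held in every fit with 1 mouse left out.

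**Figure D5:**
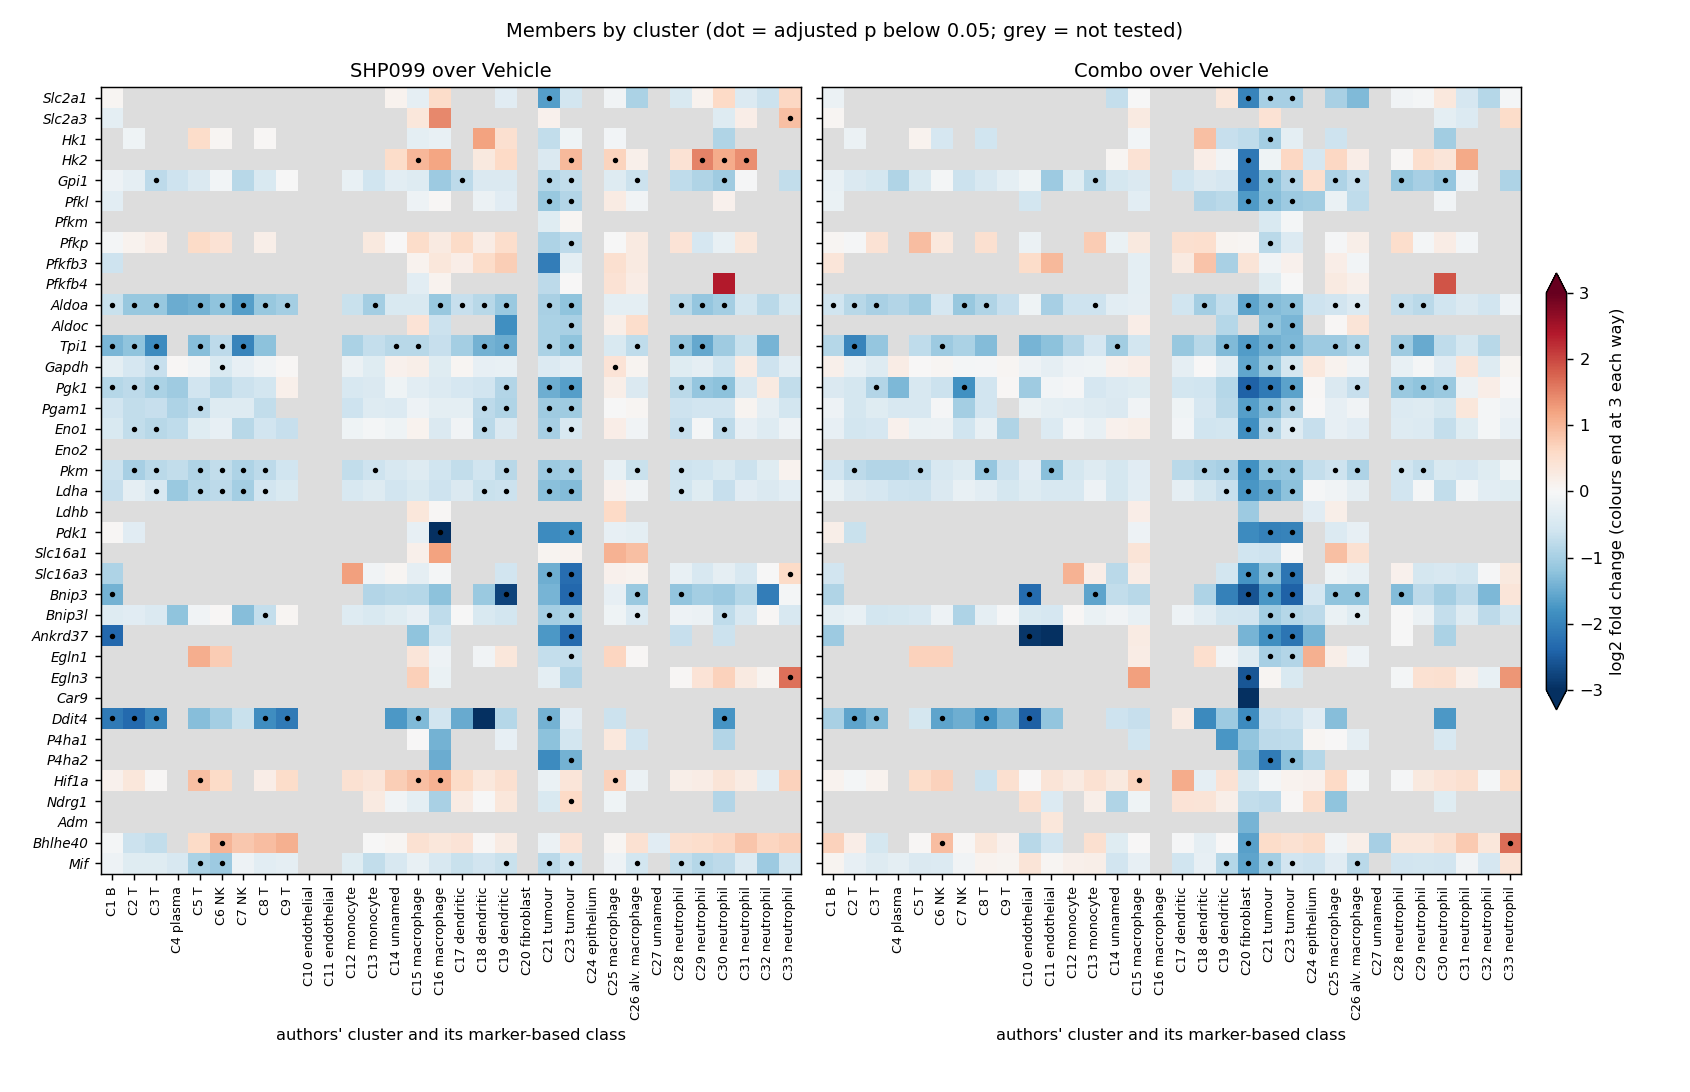
Log2 fold change of each of the 38 genes (rows) in each tested cluster (columns) for SHP099 over Vehicle (left) and Combo over Vehicle (right), blue for lower and red for higher. Dots mark an adjusted p below 0.05 and grey marks genes or clusters not tested: blue dots line up along Aldoa, Tpi1, Pgk1, Pkm and Ldha and in the columns C20, C21 and C23, and Hk2 and Hif1a hold most of the red dots.

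Neighbouring pathways set the 38 genes in context, from lists chosen by name with earlier results of these data known. In tumour-like cells after SHP099, 5 of 19 tested genes of a further hypoxia list fell and 0 rose (median -0.47), where 13.5% of all genes were called. Mxi1, a MYC antagonist gene that HIF drives, averaged 19.8 ± 4.82 CPM in SHP099 and 42.7 ± 3.77 CPM in Vehicle mice (SD, n = 3), or -1.08 ± 0.20 (SE, adjusted p = 0.00363). Selenbp1 gave -1.28 ± 0.26 (SE, adjusted p = 0.00602) and Fam162a -1.07 ± 0.24 (SE, adjusted p = 0.0100). In the pentose phosphate pathway, which branches from glucose phosphate, 3 of 7 genes fell (median -0.30, against the same 13.5%): Taldo1 (-0.50 ± 0.12, SE, adjusted p = 0.0137), Tkt (-0.36 ± 0.09, SE, adjusted p = 0.0184) and Pgd (-0.30 ± 0.09, SE, adjusted p = 0.0441). Of the genes of pyruvate entry and the TCA cycle, which burns pyruvate in the mitochondrion, 0 of 14 were called (median 0.04), and of the HIF regulators, such as Arnt and Vhl, 0 of 5. After Combo 8 of 19 further hypoxia genes and 2 of 7 pentose phosphate genes fell in tumour-like cells, with 0 of 14 and 0 of 5 in the other lists, where 10.3% of all genes were called.

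In neutrophils after SHP099, 1 of 15 further hypoxia genes rose and 1 fell, a share near the 13.1% of all genes called there. Vegfa, the vessel growth factor gene, averaged 552 ± 74.4 CPM in SHP099 and 265 ± 86.6 CPM in Vehicle mice (SD, n = 3), or 1.12 ± 0.18 (SE, adjusted p = 0.000400), and Fam162a averaged 68.0 ± 7.38 CPM in SHP099 and 123 ± 33.04 CPM in Vehicle mice, or -0.82 ± 0.22 (SE, adjusted p = 0.0183). The pentose phosphate genes Taldo1 (-0.91 ± 0.14, SE, adjusted p = 0.000216) and Pgls (-0.74 ± 0.16, SE, adjusted p = 0.00350) fell, 2 of 7, and 1 of 13 genes of pyruvate entry and the TCA cycle, Mdh2 (-0.44 ± 0.14, SE, adjusted p = 0.0486), did so as well, and 1 of 13 is below the share of all genes. In bulk 0 genes of the 4 lists passed, where 0.113% of all genes did.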

How the data were processed

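Bulk RNA of sorted Epcam+ cells and single-cell RNA of KP lung nodules were analysed from the processed files. The deposited bulk files hold raw read counts per gene, made with unstranded counting on mm10 per the file names and the submitters' processing notes, which name STAR, Picard, HTSeq, bedtools and DESeq2. The deposited single-cell matrix holds raw UMI counts per gene and cell, for which the notes name Cell Ranger, and the authors' tables give each cell's cluster and hashtag, from iCellR per the file headers. The sources used here do not state the annotation, the tool versions or a doublet removal, and no doublet caller was run.

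UMIs were summed per mouse for each cluster or state, for tumour-like cells (C21 and C23) and for all neutrophils, using mice with at least 10 cells. Each was fitted over the 4 treatments at once (bulk: 2 groups) with edgeR 4.0.16 in R 4.3.3, by TMM scaling, filterByExpr and the two-sided quasi-likelihood test, with Benjamini-Hochberg adjustment over all genes tested and a threshold of 0.05. A contrast was tested where both groups had 2 mice or more. CPM of a comparison are TMM-scaled. SE is the log2 fold change divided by the square root of F. Differences of effect between classes were tested with limma 3.58.1 on each mouse's log2 CPM difference (prior count 2). Alternatives were DESeq2 1.42.0, its size factors, no count filter, a replicate block, fits on the 2 treatments compared, at least 25 cells per mouse and each mouse left out. The labels do not say that bulk libraries came from separate mice, so p-values measure the spread between these samples.

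The members and lists were chosen with earlier results of these data known. The rule was to name every member called with values, at most 10 each way in full, and in single clusters and states this was narrowed, after values were seen, to a choice of the calls, with the rest as counts. Hif1a, Slc2a1, Ldha, Pgk1 and Bnip3 are given in bulk, tumour-like cells and neutrophils whether called or not. Other pathway genes are named at most 3 per list, by adjusted p among those called. In counts simulated from the real means with 200 changed genes, the tests recovered 29% of 2-fold and 63% of 4-fold changes for bulk SHP099, and 56% and 80% for SHP099 in tumour-like cells.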

Additional observations from a re-analysis of the deposited data

Results flagged for a closer look

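For 10 genes the effect of SHP099 differed between tumour-like cells and neutrophils, tested on each mouse's difference (limma, adjusted p below 0.05). Both classes are sums over clusters whose cell numbers shifted with treatment, and the part of that shift was not tested. The difference of log2 fold changes, tumour-like minus neutrophil, was -1.99 ± 0.50 (SE, adjusted p = 0.0345) for Ankrd37, -1.55 ± 0.30 (SE, adjusted p = 0.00902) for Egln3, -0.89 ± 0.12 (SE, adjusted p = 0.000714) for Ldha, -1.75 ± 0.33 (SE, adjusted p = 0.00787) for Pfkl and -1.35 ± 0.32 (SE, adjusted p = 0.0239) for Pfkp. It was -0.69 ± 0.14 (SE, adjusted p = 0.0114) for Pgam1, -0.89 ± 0.16 (SE, adjusted p = 0.00533) for Pgk1, -0.53 ± 0.12 (SE, adjusted p = 0.0223) for Pkm, -1.82 ± 0.29 (SE, adjusted p = 0.00197) for Slc16a3 and -1.20 ± 0.29 (SE, adjusted p = 0.0280) for Slc2a1.

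For Combo 7 genes differed in the same test. The difference was -0.68 ± 0.14 (SE, adjusted p = 0.0404) for Aldoa, -0.62 ± 0.12 (SE, adjusted p = 0.0295) for Gapdh, -0.97 ± 0.12 (SE, adjusted p = 0.00508) for Ldha and -1.62 ± 0.33 (SE, adjusted p = 0.0388) for Pfkl. It was -0.77 ± 0.14 (SE, adjusted p = 0.0292) for Pgam1, -1.11 ± 0.16 (SE, adjusted p = 0.00934) for Pgk1 and -0.67 ± 0.12 (SE, adjusted p = 0.0292) for Pkm. Both treatments were set against the same Vehicle mice.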

How the results depend on the processing

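With DESeq2 in place of edgeR, members called were 3 in bulk (0 with edgeR) and 2 for SX682 in tumour-like cells (0). Over clusters DESeq2 called 15 for SX682 (5) and 2 for Combo against SHP099 (0). Over neutrophil states it called 15 for SHP099 (24), 6 for Combo (12) and 3 for Combo against SX682 (5), and over T cell states 11 for SHP099 (17) and 5 for Combo (9). Without a count filter bulk gave 2 (0) and Combo against SHP099 in T cell states 2 (0). With at least 25 cells per mouse SX682 gave 3 over clusters (5), and on the 2 treatments alone Combo against SX682 gave 9 in tumour-like cells (15). The share of all genes called can differ between settings and is not given here, so these counts are not a result about the members. The causes were not tested.

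With each mouse left out in turn, calls over clusters ranged from 85 to 151 for SHP099, 69 to 123 for Combo, 1 to 11 for SX682, 40 to 83 for Combo against SX682 and 0 to 2 for Combo against SHP099. In tumour-like cells they ranged from 12 to 24 for SHP099, 17 to 25 for Combo and 9 to 21 for Combo against SX682. In all neutrophils the ranges were 6 to 13 for SHP099, 2 to 8 for Combo and 1 to 4 for Combo against SX682, and over neutrophil states 7 to 27 for SHP099, 1 to 14 for Combo and 2 to 6 for Combo against SX682. Over T cell states they were 8 to 16 for SHP099, 1 to 8 for Combo, 0 to 5 for Combo against SX682 and 0 to 1 for SX682. Differences between tumour-like cells and neutrophils ranged from 5 to 11 for SHP099 and 0 to 9 for Combo. The share of all genes called in each fit is not given, so these ranges are not a result about the members.

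With the replicate number as a block, SHP099 called 20 members in tumour-like cells, 10 in neutrophils and 0 in bulk, and no count of calls moved by over 1.5 times. Same-numbered samples did not deviate together in every pair (tumour-like SHP099 and Vehicle mice, r = 0.0022, 0.111 and 0.0133). These values have no reference to set them against, so they cannot show whether a number stands for shared handling. Of 9428 values of 513 named gene results under alternatives, 8102 kept their side of the threshold, 1308 lost it, 18 gained it and 0 reversed. Tumour-like cells numbered 57 to 84 per SHP099 mouse, which limits the precision of genes with few UMIs.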
